A study of Homo sapiens with 19 samples.

Results

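Knockdown of fibrillarin (FBL) was compared with a control knockdown in Kasumi-1 cells, a human acute myeloid leukaemia line, where both arms also carried an empty expression vector. The comparison was defined by the labels and used 4 of the 19 libraries of the series, with 2 libraries per arm and all 120 listed 2'-O-methylation sites of ribosomal RNA (47 in 18S, 71 in 28S and 2 in 5.8S). The column names give the knockdown constructs as shFBL4 and the control construct as shLUC. All 4 libraries are labelled as treated with doxycycline at 100 ng/ml, the inducer of the knockdown, so the control arm received it too. The labels do not say whether the 2 libraries of an arm came from separate cultures, so the p-values below measure only the spread between libraries, which may be technical. Only rRNA ends were counted, so the level of the FBL transcript could not be checked here. The other libraries are FBL and control knockdowns without the vector, FBL knockdowns re-expressing wild-type FBL or either of 2 forms labelled as mutants, and cells with SNORD127 deleted or restored.

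Fibrillarin is the enzyme that adds the methyl group in box C/D particles of the nucleolus. There it sits with NOP56, NOP58 and SNU13 on a guide RNA (a SNORD), which base-pairs with the pre-rRNA and places the methyl group on the ribose of the nucleotide fixed by its distance from the D box. A methylated ribose resists alkaline cleavage of the bond that follows it. RiboMethSeq counts the ends of rRNA fragments after alkaline hydrolysis, and a methylated site appears as a gap in the ends. The deposited score, called score C, is 1 minus the end count just after a site divided by the weighted mean count of the 6 positions on either side, set to 0 where negative. A score near 1 means that almost no ends were found after the site and 0 means no gap. Sites are named by rRNA and position as in the deposited table, for example 28S-2388, and guides are those listed there.

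The 4 libraries held between 11232162 and 13278107 end counts. The flanking mean behind a score had a median of 1145.1 counts and ranged from 53.7 to 23104. Counting error alone gave a 95% exact Poisson interval with a median half-width of 0.018, and 415 of the 480 scores had a half-width under 0.05. These intervals cover counting error only, and ends were counted without molecular identifiers. Replicate libraries differed in their end counts by more than counting error. Chi-square per position, far above that of counting error alone, was 29.7 between the knockdown libraries and 700 between the controls.

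Control replicate 2 stood apart from the other libraries in its end profile. At 28S position 15 it held 2760911 ends, 20.8% of its total, against 1.70% in control replicate 1, 1.28% in FBL knockdown replicate 1 and 1.84% in FBL knockdown replicate 2. The difference was not limited to that position: of 4097 positions with at least 100 counts in all 4 libraries, 1883 differed over 2-fold between the control replicates, 22 between control replicate 1 and FBL knockdown replicate 1, and 4 between the knockdown replicates. The interquartile range of the log2 count ratio was 0.88 between the controls, 0.36 between the knockdown replicates and 0.17 between control replicate 1 and FBL knockdown replicate 1. At the listed sites the controls were nearer to each other than their profiles, with a median absolute score difference of 0.014, against 0.013 between the knockdown libraries. The controls differed by over 0.1 at 13 sites and the knockdown libraries at 7. The main counts, and the named calls that it decides, are therefore also given without it.

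Methylation scores were lower across most of the rRNA after FBL knockdown. The mean score over the 120 sites was 0.864 and 0.872 in the control libraries (0.868 ± 0.006, SD, n = 2) and 0.715 and 0.727 in the knockdown libraries (0.721 ± 0.009, SD, n = 2). Both knockdown libraries were below both controls, by 0.147 on average, with a two-sided exact permutation p of 0.333, the smallest that 2 against 2 libraries allow. The median site scored 0.968 and 0.960 in the controls and 0.817 and 0.837 in the knockdown. Sites at 0.9 or more numbered 87 and 88 in the controls and 35 and 37 in the knockdown, while sites under 0.5 numbered 9 in each control and 21 and 20 in the knockdown.

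**Figure D1:**
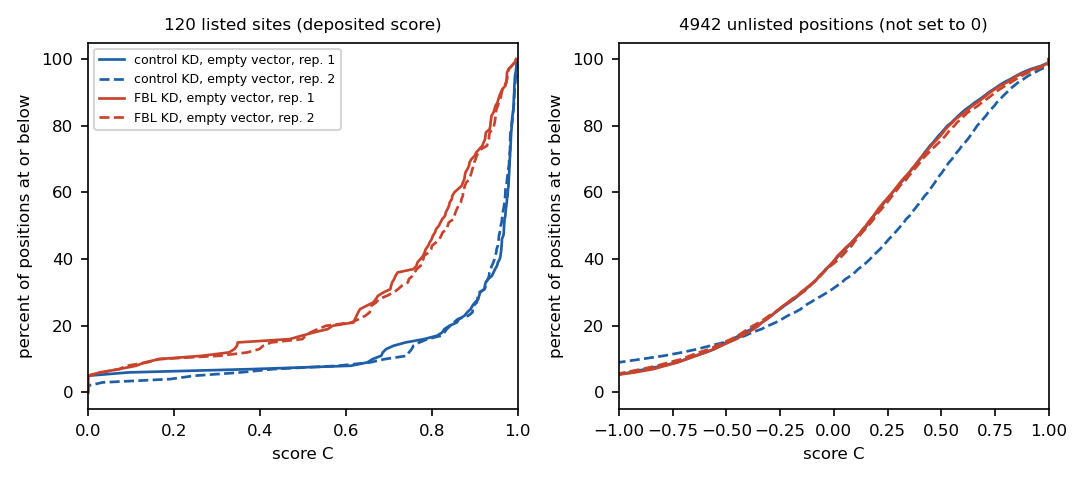
Cumulative distribution of score C in each of the 4 libraries (x axis, score; y axis, percent of positions at or below it) at the 120 listed sites and at 4942 unlisted rRNA positions, where the score was recomputed and not set to 0. The knockdown curves lie left of the controls at listed sites, while at unlisted positions control replicate 2 alone is shifted, with a median of 0.312 against 0.149 to 0.160 in the other 3 libraries.

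The same score was computed at 4942 unlisted positions, each over 12 nucleotides from a listed site. Its median was 0.152 in control replicate 1, 0.149 and 0.160 in the knockdown libraries and 0.312 in control replicate 2. The other 18 libraries of the series lay between 0.145 and 0.204. Against control replicate 1, the knockdown libraries thus differed by -0.003 and 0.007 at unlisted positions and by -0.152 and -0.131 in their median at listed sites.

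With limma across the 14 knockdown libraries and Benjamini-Hochberg adjustment over 120 sites at 0.05, the score fell at 81 sites (67.5%) and rose at 1 (0.833%). Both knockdown libraries were below both controls at 96 sites (80%) and above both at 3 (2.5%). Without control replicate 2, 73 sites (60.8%) fell and none rose (limma, and 0 rose at an unadjusted p under 0.05), and 71 sites fell in both fits. The 10 calls that were lost are 18S-166, 18S-512, 18S-601, 18S-1272, 18S-1326, 28S-1521, 28S-3764, 28S-3846, 28S-3866 and 28S-4588. Leaving out each of the 4 libraries in turn left 68 sites called lower every time. A scaling that sets the library medians over the listed sites equal moves the knockdown up by 0.138, and relative to that shift 34 sites were lower and 56 higher. The directions below are on the deposited scale. With medians at unlisted positions set equal and control replicate 2 left out, 75 sites were lower and none higher; with control replicate 2 kept, that scaling left 32 lower and none higher (limma, with 0 and 2 higher, respectively, at an unadjusted p under 0.05).

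The size of the loss differed widely between sites. Scores changed by more than 0.3 downward at 18 sites, 16 of them in 28S, by 0.1 to 0.3 downward at 38 and by 0.02 to 0.1 downward at 40. At 21 sites the change lay within 0.02 of 0 and at 3 it was above 0.02. Of 88 sites with a control mean of 0.9 or more, 36 stayed at 0.9 or more, 26 had knockdown means of 0.8 to 0.9, 21 of 0.6 to 0.8 and 5 of under 0.6. Of 110 sites at 0.5 or more in both controls, 9 lost over 50% of their control score.

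On the deposited scale the largest fall was at 28S-2388, guided by SNORD68. It scored 0.928 and 0.907 in the controls and 0.0945 and 0.151 in the knockdown libraries. The arms were far apart, and the change was -0.794 (SE 0.025, 95% confidence interval -0.851 to -0.738, adjusted p = 1.72e-08), a loss of 86.6% of the control score. In ends, the position after the site held 852 and 940 counts in the controls against flanking means of 11785 and 10071, and 10244 and 11965 counts in the knockdown against flanking means of 11313 and 14101. The gap in the profile was thus almost filled in both knockdown libraries.

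**Figure D2:**
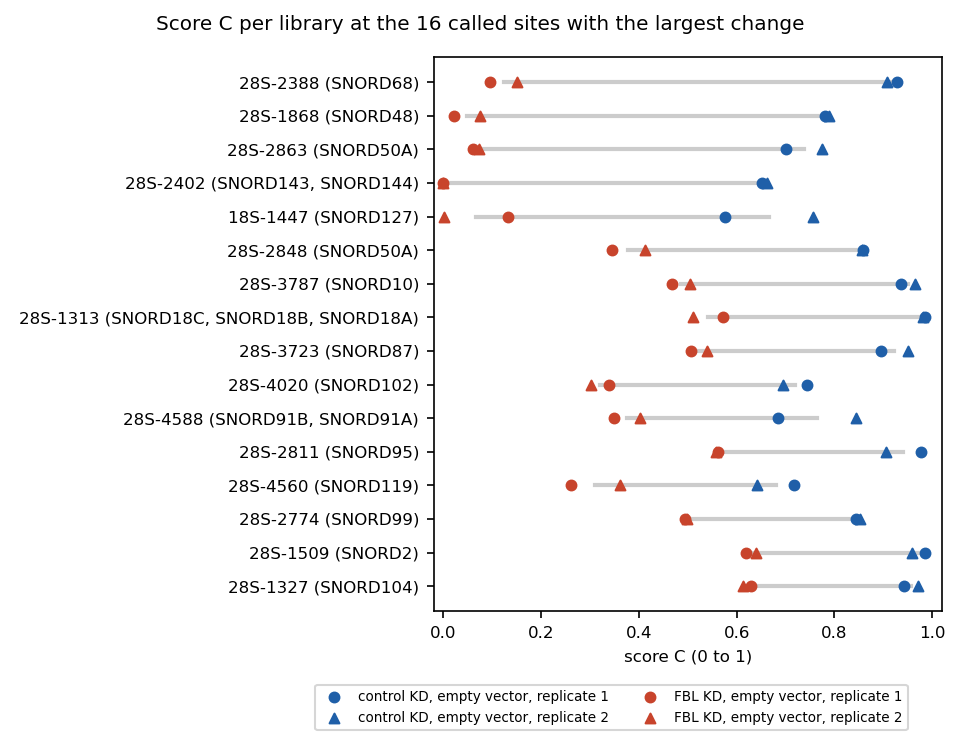
Score C (x axis, 0 to 1) in each of the 4 libraries at the 16 called sites with the largest change, named with their listed guides; grey bars join the group means. At each of them both knockdown libraries lie below both controls, from 28S-2388 (change -0.794) to 28S-1327 (change -0.336).

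At 28S-1868 (SNORD48, a small RNA often used as a reference in miRNA assays) the controls scored 0.781 and 0.789 and the knockdown libraries 0.0222 and 0.0742. The loss was 93.9% of the control score (change -0.737, SE 0.040, adjusted p = 3.43e-07). Ends after the site rose from 278 and 213 to 1136 and 1081 counts. The 95% counting interval in knockdown replicate 1 ran from -0.036 to 0.078 and so included 0.

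The pair of sites guided by SNORD50A, encoded in the noncoding host gene SNHG5, both fell. At 28S-2863 the scores were 0.701 and 0.774 in the controls and 0.0615 and 0.0722 in the knockdown (change -0.670, SE 0.048, adjusted p = 2.54e-06). At 28S-2848 they were 0.859 and 0.856 against 0.344 and 0.411 (change -0.480, SE 0.061, adjusted p = 9.41e-05). The former site lost 90.9% of its control score and the latter 55.9%.

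28S-2402, assigned to SNORD143 and SNORD144, scored 0.652 and 0.662 in the controls and was listed at 0 in both knockdown libraries (change -0.657, SE 0.010, adjusted p = 8.44e-11). Here the 0 came from a value below 0: not set to 0, the knockdown scores were -0.674 and -0.728. The ends after the site numbered 30255 and 39924 against flanking means of 18075 and 23104, so in the knockdown this position held more ends than its surroundings. Without the limit at 0 the change was -1.36 (SE 0.054, adjusted p = 3.26e-08), larger than at 28S-2388 on that scale, so the deposited scale understates it. Scores set to 0 cannot vary, and the knockdowns with empty vector, without vector and with wild-type FBL were all listed at 0 here. The SE of 0.010 and its adjusted p therefore rest partly on that limit and overstate the precision.

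18S-1447, the target of SNORD127, the snoRNA deleted elsewhere in the series, showed the largest fall in 18S. The controls scored 0.577 and 0.756 and the knockdown libraries 0.133 and 0.000717. The controls themselves differed by 0.179, the knockdown libraries by 0.132, and the arms did not overlap (change -0.600, SE 0.067, adjusted p = 3.80e-05). Without control replicate 2 the change was -0.510 (adjusted p = 0.000259).

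Among sites with a control mean of 0.9 or more, those guided by SNORD10, SNORD18A to SNORD18C, SNORD87, SNORD95, SNORD2 and SNORD104 lost the most after 28S-2388. 28S-3787 (SNORD10) went from 0.935 and 0.965 to 0.469 and 0.505 (change -0.463, SE 0.025). 28S-1313 (SNORD18A, SNORD18B and SNORD18C, from introns of RPL4) went from 0.984 and 0.980 to 0.571 and 0.510 (change -0.441, SE 0.021). At both sites the arms were apart by many times the gap between replicates. Of the rest, 28S-3723 (SNORD87) fell by 0.400, 28S-2811 (SNORD95) by 0.381, 28S-1509 (SNORD2) by 0.342 and 28S-1327 (SNORD104) by 0.336, each with a knockdown score between 0.506 and 0.640.

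The remaining sites among the 16 largest falls scored under 0.9 in both controls. They are 28S-4020 (SNORD102; change -0.399), 28S-4588 (SNORD91A and SNORD91B; -0.390), 28S-4560 (SNORD119; -0.369) and 28S-2774 (SNORD99; -0.351). 28S-4588 was the least certain of them: its controls scored 0.685 and 0.845, its knockdown libraries 0.349 and 0.401, and without control replicate 2 the change was -0.310 with an adjusted p of 0.0560. In 5.8S, 5.8S-75 (SNORD96A and SNORD96B) fell from 0.979 and 0.989 to 0.649 and 0.659 (change -0.330, SE 0.016, adjusted p = 2.33e-07). The other 5.8S site, 5.8S-14 (SNORD71), scored 0.808 and 0.894 in the controls and 0.807 and 0.80 in the knockdown, and its change of -0.047 did not pass (adjusted p = 0.124). Without control replicate 2 it was -0.005.

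The median change was larger in 28S than in 18S. In 28S, 58 of 71 sites fell and none rose (limma, and 0 rose at an unadjusted p under 0.05), with a median change of -0.158, while in 18S 22 of 47 fell and 1 rose, with a median of -0.040, beside 81 of 120 and -0.084 over all sites. The counts without control replicate 2 were 53 of 71 and 19 of 47. With library medians set equal, which adds the same shift to every site, 31 sites of 28S were lower and 22 higher, and 2 sites of 18S were lower and 33 higher. This difference between the subunits was described by counts and not tested.

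**Figure D3:**
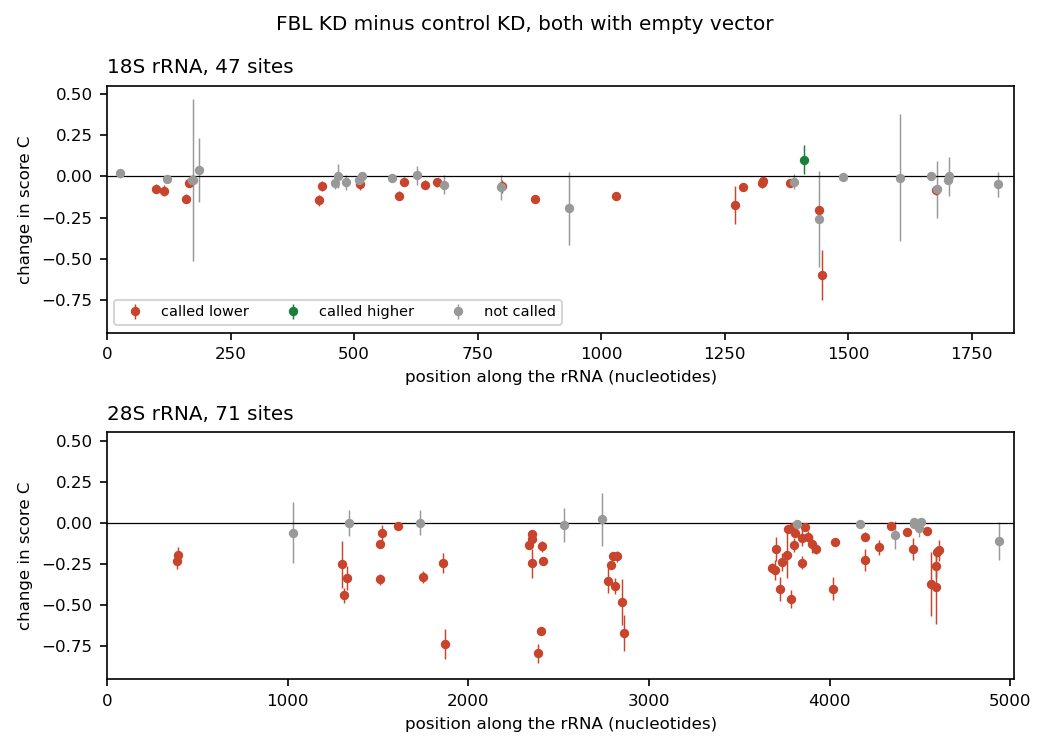
Change in score C (y axis, FBL knockdown minus control knockdown on the deposited scale, with 95% confidence intervals from limma) against position (x axis, nucleotides) along 18S (47 sites) and 28S (71 sites). Large falls in 28S occur from position 1313 to 4588. In 18S 22 of 47 sites were called lower and the median change was -0.040. The largest called falls there were at 18S-1447 (-0.600) and 18S-1442 (-0.207).

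Along 28S the medians were -0.229 up to position 2000 (12 of 15 fell), -0.231 from there to 3500 (15 of 17) and -0.146 from there to 4100 (19 of 20). In the region above 4100 and up to 4500, around the peptidyl transferase centre where the ribosome joins amino acids, 6 of 11 fell and the median was -0.052. Above 4500, 6 of 8 fell with a median of -0.171. With library medians set equal, 1 of those 11 was lower and 7 higher. In order along 28S, 11 of 15, 15 of 17, 16 of 20, 6 of 11 and 5 of 8 fell in these regions without control replicate 2. In 18S, 11 of 23 sites up to position 670 fell (median -0.037) and 11 of 24 beyond it (median -0.055). With medians set equal, 18 of the former and 15 of the latter were higher.

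Of all 120 sites 81 fell (67.5%, median -0.084), the share to set beside each count below. Sites with named guides made up 80 of the 81 falls, and also most of the 120 sites (73 with 1 listed guide and 31 with 2 or more). Among sites with 1 listed guide 57 of 73 fell (median -0.134), and among those with 2 or more 23 of 31 fell (median -0.085). Leaving out control replicate 2 gave 53 and 19. With library medians set equal, 27 of the former were lower and 32 higher, and 7 of the latter were lower and 16 higher. Of 13 sites whose guide is predicted or unknown none fell (limma, and 0 at an unadjusted p under 0.05), and the median was -0.007. Their median control score was 0.259, so most had little score to lose, and the count does not show that such sites keep their methylation. Without control replicate 1, 18S-936, 18S-1441 and 28S-4937 were called lower. Sites with another listed site within 6 nucleotides, whose flank also covers a gap, fell at 30 of 44 (median -0.085), and those without at 51 of 76 (median -0.079). Grouped by the control knockdown without vector, which was not used here to measure the change, sites at 0.9 or more fell at 70 of 94 (median -0.082), sites at 0.6 to 0.9 at 10 of 15 (median -0.351) and sites under 0.6 at 1 of 11 (median -0.007). These counts were 64, 8 and 1 without control replicate 2.

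Most human box C/D snoRNAs are processed from introns, often of genes that serve translation, and the guides were grouped by host gene from background knowledge. With 67.5% of all sites falling, a small group in which most or all sites fell is near the background, and the counts below are descriptions. All 4 sites of the RPL7A snoRNAs fell (median -0.146), with 28S-2352 (SNORD24) at -0.247 and 28S-3703 (SNORD36C) at -0.158. With medians set equal 1 of these 4 was lower and 1 higher. Both sites of SNHG5 (median -0.575), of SNHG32 (SNORD48 and SNORD52; median -0.433), of TAF1D (SNORD5 and SNORD6; median -0.187) and of RPL17 (SNORD58A to SNORD58C; median -0.154) fell. With medians set equal, both SNHG5 sites stayed lower, the others kept 1 lower site each, and the other RPL17 site, 28S-4197, was higher.

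Other host groups had medians closer to 0. For GAS5, a long noncoding RNA that hosts many snoRNAs, 9 of 10 sites fell, with a median of -0.062 and 6 falling without control replicate 2. The largest were 28S-391 (SNORD81; -0.194) and 28S-4593 (SNORD78; -0.177), and with medians set equal 2 were lower and 7 higher. For SNHG1, 3 of 8 fell (median -0.030), led by 28S-389 (SNORD26; -0.229), and for RPL13A 4 of 5 (3 without control replicate 2; median -0.042), led by 28S-2824 (SNORD34; -0.204). For NOP56, which encodes a core protein of the same particles, 2 of 3 fell (median -0.062), namely 18S-99 (SNORD57; -0.074) and 18S-1288 (SNORD110; -0.062). With medians set equal, 6 of 8 SNHG1 sites, 3 of 5 RPL13A sites and all 3 NOP56 sites were higher. RPL23A and NCL each had 1 of 2 sites fall, RPL4 1 of 2 (2 without control replicate 2), and RPL3 neither of its 2. No listed site belonged to the HSPA8 group.

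Guides with a pair of listed sites allowed the same snoRNA to be read at 2 positions, although some of these sites also list another guide. There were 16 such guides, several of them copies that share both sites. SNORD68 showed the widest gap: 28S-2388 changed by -0.794 and 18S-428 by -0.145, with 18S-428 at 0.968 and 0.980 in the controls and 0.820 and 0.837 in the knockdown. SNORD62A and SNORD62B had -0.117 at 18S-590 and 0.005 at 28S-4468. SNORD58A to SNORD58C had -0.226 at 28S-4198 and -0.083 at the adjacent 28S-4197. For SNORD45A the changes were -0.135 at 18S-159 (also SNORD45C) and -0.019 at 18S-172 (also SNORD45B), and the latter did not pass. For SNORD30 they were -0.135 at 28S-3804 and -0.040 at 18S-1383. For SNORD32A and SNORD32B they were -0.131 at 28S-1511 (also SNORD51) and -0.026 at 18S-1328. Differences between sites of a guide were not tested.

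Some fully methylated sites kept their score. 28S-4469 lies next to 28S-4468 in the A loop, which binds the incoming tRNA, and is known as a target of the stand-alone methyltransferase FTSJ3 and not of FBL. It scored 0.992 and 0.993 in the controls and 0.983 and 0.993 in the knockdown. Knockdown replicate 2 lay between the controls, and the 95% confidence interval of the change ran from -0.017 to 0.008 (adjusted p = 0.476). Sites with snoRNA guides were also among them: 18S-517, 18S-1490, 28S-4166, 28S-4468 and 28S-4506 changed by between -0.006 and 0.005 and none passed. These guided sites were picked for having the smallest changes among sites that scored high in both controls. Their narrow range and the lack of calls therefore reflect that choice and do not test whether guided sites keep their score. At 28S-4468 the interval was -0.001 to 0.010. The change at 28S-4469 with library medians set equal was 0.133, which places it above the median site by that amount.

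18S-1410, a site with a predicted guide, was the only rise called on the deposited scale. Its controls scored 0.288 and 0.233 and its knockdown libraries 0.325 and 0.396 (change 0.10, SE 0.039, adjusted p = 0.0452). It passed narrowly and was not called without control replicate 2 (0.073, adjusted p = 0.207), and with flanks of 2 nucleotides the sign turned to -0.048. With scores not set to 0 it was not called either (adjusted p = 0.0663), and 28S-1339, which the deposited table lists at 0 throughout, was called higher instead (change 0.335, adjusted p = 0.0164), from -1.49 and -1.44 in the controls to -1.15 and -1.11 in the knockdown.

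At 18S-174 (SNORD45C) the controls differed more than at any other site. Its controls scored 0.825 and 0, and its knockdown libraries 0.348 and 0.429. The knockdown values lie between the controls, and the change was -0.024 with a 95% confidence interval of -0.516 to 0.468 (adjusted p = 0.971). Without control replicate 2 it was -0.436 (adjusted p = 0.00659), and without control replicate 1 it was 0.388 (adjusted p = 0.0103). The knockdown without vector, which shares no library with this comparison, gave -0.324 at this site. No direction can be read for 18S-174 from these 4 libraries.

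The controls also disagreed at 18S-1441 (0 and 0.518), 18S-936 (0 and 0.390) and 18S-1606 (0 and 0.349), all with a predicted or unknown guide. At 18S-1441 and 18S-936 both knockdown libraries were listed at 0, so any loss there rests on control replicate 2. Sites 18S-1668, 18S-1705 and 28S-1339 were listed at 0 in all 4 libraries. 28S-2739 was listed at 0 in 1 library of each arm and at 0.060 and 0.105 in the others, and its change of 0.023 did not pass (adjusted p = 0.826).

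**Figure D4:**
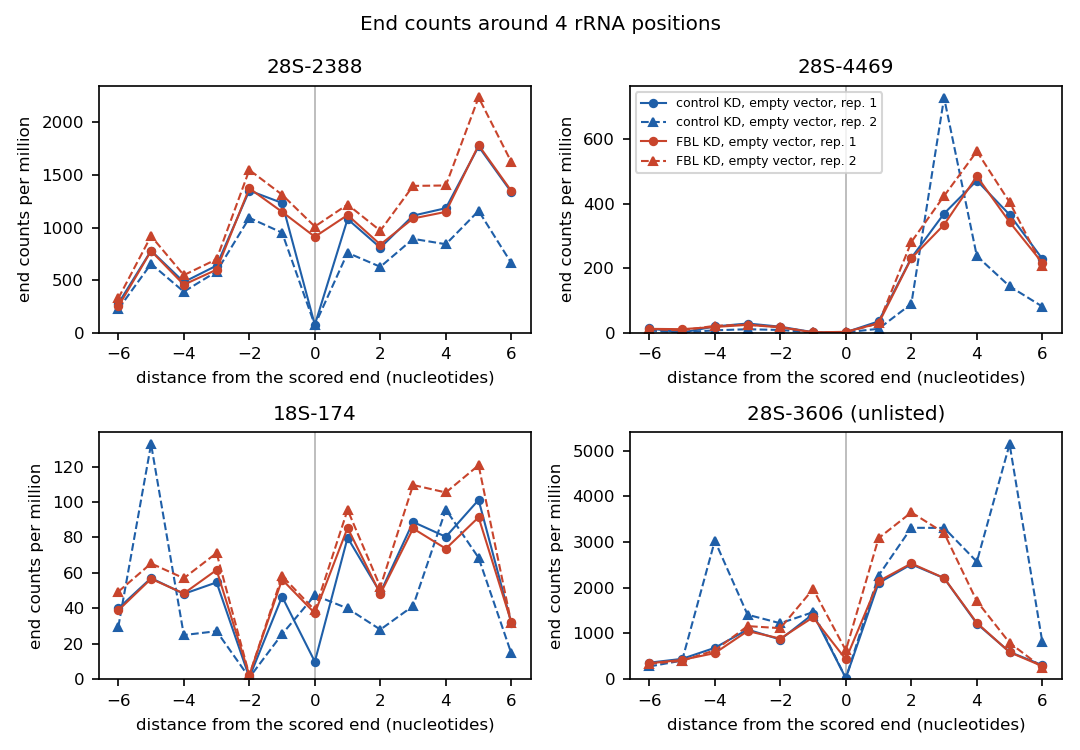
End counts scaled to the library total (y axis, CPM) at the scored end and the 6 positions on each side (x axis, nucleotides) in the 4 libraries around 28S-2388, 28S-4469, 18S-174 and the unlisted position 28S-3606. At 28S-2388 the gap at 0 is seen in the controls only, at 28S-4469 in all 4 libraries, and at 18S-174 control replicate 2 differs from control replicate 1 at the scored end and around it.

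A gap in the controls was also sought at unlisted positions. At 233 positions, each over 6 nucleotides from a listed site and with a flanking mean of at least 100, the score was 0.75 or more in both controls. The median change there was -0.003, and 2 positions (0.858%) changed by -0.2 or further. 28S-3606, 74 nucleotides from the nearest listed site, scored 0.984 and 0.991 in the controls and 0.658 and 0.634 in the knockdown, a change of -0.342. Its ends numbered 236 and 268 in the controls and 4850 and 7465 in the knockdown, over flanking means between 14172 and 28574. The knockdown without vector gave 0.956 and 0.966 against 0.805 and 0.792 at this position, and the knockdown with wild-type FBL restored gave 0.847 and 0.853. 28S-1370 scored 0.766 and 0.854 against 0.622 and 0.594, a change of -0.202, but rested on 36 to 94 ends. Without the vector its scores were 0.836 and 0.923 in the controls and 0.848 and 0.720 in the knockdown, which overlap, and with wild-type FBL restored they were 0.624 and 0.634. Both positions were picked by their change, so no test is given, and neither is listed as methylated in the deposited table.

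The most similar comparison in the series is the FBL knockdown without any vector, which shares no library with this one. Its knockdown columns are named shFBL1 and shFBL2, not shFBL4. Its control columns carry the same digits, which match the replicate numbers, so the digits may not name a construct. Its libraries held 5533150 to 9021579 ends. The end profile differed too. 28S position 2401 held the most ends in both knockdown libraries without vector (3.33% and 3.90%) and in replicate 2 of their control (2.56%). With empty vector the top position was 28S position 1, or 15 in control replicate 2. Position 2401 lies in the flank of 28S-2402. The vector, any difference in construct, the depth and the end profile therefore cannot be told apart in what follows. There 71 sites (59.2%) fell and 2 (1.67%) rose by the same limma fit. Of the 81 falls with empty vector, 66 were also called without it, and 15 were called only with it, while 5 were called only without it. The test of the difference between the effects called 36 sites, 30 (25%) with a more negative effect in the presence of the empty vector and 6 (5%) with a less negative one. Without control replicate 2, 27 were called, 23 and 4 respectively. The count was 23 without FBL knockdown replicate 1, 22 without FBL knockdown replicate 2, 20 without replicate 2 of the control without vector and 2 with medians at unlisted positions set equal. On the logit scale it was 15, with 8 more and 7 less negative. Median scores at unlisted positions were 0.188 and 0.202 in the controls without vector and 0.204 and 0.196 in the knockdown without vector, and whether the end profile of control replicate 2 plays a part in the 36 calls was not tested beyond leaving it out.

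28S-2388 (SNORD68) had the largest difference. Without vector it went from 0.942 and 0.943 to 0.555 and 0.558, a change of -0.386, against -0.794 with empty vector. The difference was -0.408 (SE 0.035, adjusted p = 0.000106) and -0.419 without control replicate 2 (adjusted p = 0.000383). 28S-3723 (SNORD87) and 28S-1327 (SNORD104) also fell further, by differences of -0.248 (adjusted p = 0.00477) and -0.233 (adjusted p = 0.00537), and both passed without control replicate 2 (adjusted p = 0.0240 and 0.0264). 28S-2402 changed by -0.463 without vector, from control scores of 0.466 and 0.460, and was listed at 0 in all 4 knockdown libraries of both backgrounds, so its difference of -0.194 is that between the control levels. At 28S-2848 and 28S-2863, the SNORD50A sites, the differences of -0.278 and -0.217 passed with all libraries (adjusted p = 0.0400 and 0.0427) and not without control replicate 2 (adjusted p = 0.0887 and 0.119). At 28S-1868 the effects were -0.737 and -0.661, and the difference of -0.076 did not pass (adjusted p = 0.361).

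**Figure D5:**
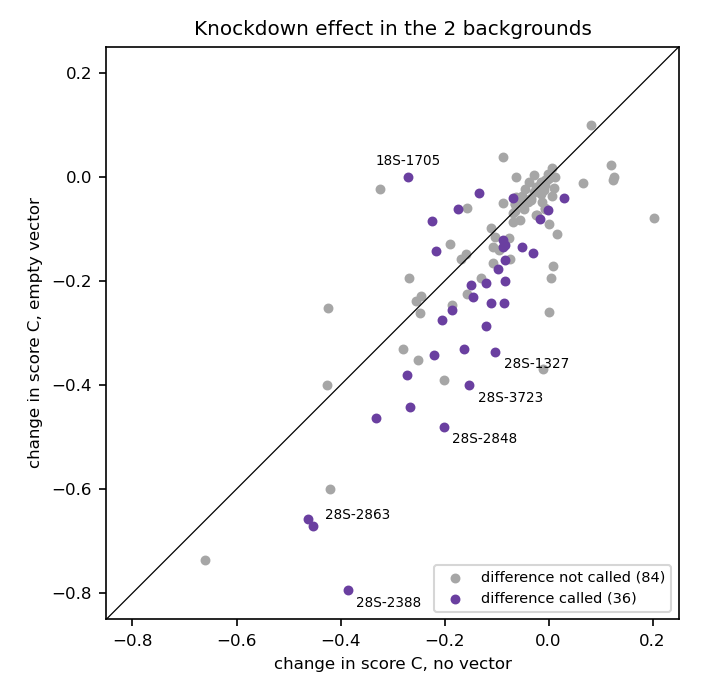
Change in score C with empty vector (y axis) against the change without vector (x axis) at the 120 sites, on the deposited scale; the line marks equal change. Of the 36 sites with a called difference, 30 lie below the line, the farthest being 28S-2388, and 6 above it, the farthest being 18S-1705, which was listed at 0 in all 4 libraries with empty vector.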

How the data were processed

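RNA was fragmented by alkali and sequenced from a small RNA library preparation, per the labels' protocols. The submitters' processing notes name cutadapt and Bowtie2; their versions, settings and the rRNA reference were not given in the sources used here. End counts at 7000 rRNA positions were deposited by the authors, with score C, a fraction, at 120 sites. Score C was recomputed from the deposited counts as described in the report (flank weights 1 to 0.5) and matched all 2280 deposited scores within 1e-09. Positions are those of the deposited table, which names the base at too few sites to group sites by base. No genome coordinates or sequences were used.

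Scores were tested with limma 3.58.1 (variance trend) in R 4.3.3 over 14 knockdown libraries in 7 groups of 2, two-sided, with Benjamini-Hochberg adjustment over 120 sites at 0.05. Mean scores were compared by exact permutation (scipy 1.17.1). The procedure was also run on simulated data, in which all libraries shared the same end profile, pooled over the control libraries. The simulation therefore does not cover the differing end profile of control replicate 2. Counting intervals are exact Poisson limits of the count after the site, with the flank taken as fixed, in place of the planned resampling. Named sites are the 16 called sites with the largest change, every site called higher, the top 2 of each list, 18S-1447, 28S-4469, the 6 high sites closest to no change, every site listed at 0 and the 6 called sites with the largest difference between the effects; 28S-3606, 28S-1370 and other sites named beside them were chosen after their values were seen. The comparison, lists and rules were chosen with earlier results of these data known. One group of sites among the lists is not reported here. The labels give no batch. Scales, flanks, scalings, filters, a replicate block and omitted libraries were varied; the replicate block with control numbers crossed, the omission of odd windows and the scaling on unlisted positions without control replicate 2 were chosen after seeing the data.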

Additional observations from a re-analysis of the deposited data

Results flagged for a closer look

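The knockdown effect differed between the empty-vector and no-vector backgrounds by the interaction test (limma, adjusted p under 0.05 over 120 sites) at 36 sites, 19 of which are listed here because the naming rule or a list picks them. The difference (empty vector minus no vector) was -0.408 at 28S-2388, -0.278 at 28S-2848, -0.248 at 28S-3723, -0.233 at 28S-1327, -0.217 at 28S-2863, -0.194 at 28S-2402, -0.175 at 28S-1313, -0.131 at 28S-3787, -0.122 at 28S-1509, -0.115 at 18S-428 and -0.109 at 28S-2811. Smaller differences were -0.087 at 28S-2411, -0.084 at 28S-3804, -0.083 at 28S-2824, -0.079 at 28S-4593, -0.064 at 18S-1678, -0.048 at 28S-1511 and 0.073 at 28S-2409. At 18S-1705 it was 0.269: the site was listed at 0 in all 4 libraries with empty vector, while without vector the controls scored 0.162 and 0.377 and both knockdown libraries 0. Without control replicate 2, 6 of the 19 calls were lost, namely 18S-1705, 28S-2409, 28S-2848, 28S-2863, 28S-3787 and 28S-3804.

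A change was seen outside the listed sites at 28S-3606, where the mean score was lower in the knockdown by 0.342 (-0.342), and at 28S-1370 (-0.202). Neither position was used in the comparisons of listed sites, and no explanation for them was tested.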

How the results depend on the processing

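Directions changed with library medians equal: 34 sites were lower and 56 higher, against 81 and 1 in the main fit. With both directions pooled, the count of 82 called sites stayed within 1.5 times under every alternative run except with medians at unlisted positions equal. That scaling left 32 (32 lower, none higher). The same scaling without control replicate 2 gave 75. Leaving out each of the 4 libraries gave 72 to 82, and the replicate block gave 83 (crossed control numbers, 81). Same-numbered libraries correlated at -0.23 in their score deviations, and at -0.18 without windows where the controls differed over 4-fold. The control deviations include control replicate 2, which stood apart in its end profile, so these values cannot decide whether the numbers pair the libraries. By log2 count ratio, control replicate 1 was nearer to FBL knockdown replicate 1 (interquartile range 0.17) than to replicate 2 (0.34). For the 36 sites whose effect differed between backgrounds, the logit scale left 15 (8 more and 7 less negative), equal medians at unlisted positions 2, the replicate block 33 (crossed, 33), only the 8 libraries of both comparisons 24, and leaving out single libraries 20 to 40, with 23 without FBL knockdown replicate 1 and 22 without replicate 2 (empty vector), and 20 without control replicate 2 without vector. The mean difference of -0.147 became -0.009 with library medians equal, -0.069 with medians at unlisted positions equal, and -0.153 to -0.141 without single libraries.

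With library medians equal, 19 of 61 named sites turned from lower to higher: 18S-99 0.064, 18S-116 0.051, 18S-121 0.124, 18S-159 0.0029, 18S-484 0.101, 18S-517 0.137, 18S-1288 0.076, 18S-1490 0.136, 18S-1678 0.056, 18S-1703 0.117, 18S-1804 0.089, 28S-1511 0.0068, 28S-2351 0.069, 28S-3804 0.0028, 28S-3904 0.0080, 28S-4166 0.132, 28S-4197 0.055, 28S-4469 0.133 and 5.8S-14 0.090. That scaling adds the same upward shift to every change, so any site that fell by less than the shift turned higher by construction. With medians at unlisted positions equal, 18S-99 (0.0041), 18S-1288 (0.016) and 28S-2351 (0.0093) turned from lower to higher. Flanks of 2 turned 18S-1410 to -0.048, and leaving out control replicate 1 turned 18S-174 to 0.388 (-0.436 without control replicate 2). A flanking minimum of 100 counts removed 52 sites, and leaving out windows where the controls differed over 4-fold removed 46.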
